A study of Mus musculus with 6 samples.

Results

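The genes described here are those of the constitutive proteasome, the protein-degrading machine of the cytosol and nucleus. They were taken from the count table of sorted muscle macrophages as the rows whose symbol begins with Psm, a letter from a to g and a number, leaving out pseudogene rows and the interferon-inducible catalytic subunits Psmb8, Psmb9 and Psmb10. The rule gave 47 of the 55353 rows of the table. Of these, 46 passed the filter on low counts and were tested. The missing member, Psmb11, belongs to the thymus proteasome and had 2, 5 and 3 counts in the WT libraries and 0 in each KO library, where a count of 0 allows up to 3 counts. Psmc3ip, a factor of meiotic recombination, was taken only because its symbol begins like that of Psmc3. It is no proteasome subunit and is kept apart below.

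Stacked rings form the barrel-shaped core particle of the proteasome: outer rings of alpha subunits, which gate the entry, and inner rings of beta subunits, some of which cut peptide bonds. A regulatory particle caps the barrel. Its base holds a ring of ATPases that unfold substrates and large scaffold proteins, and its lid holds the enzyme that removes ubiquitin. Chaperones assemble both particles, and alternative activators (the PA28 family and PA200) can dock on the core in place of the regulatory particle. In macrophages the machine turns over cytosolic proteins and supplies peptides for presentation on MHC class I.

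The macrophages were sorted from calf muscle 3 days after hindlimb ischemia, an interruption of the blood supply to the leg, in mice of a mixed background given by the labels as 129S1/Sv * 129X1/SvJ * C57BL/6 * CBA. There were 3 libraries labelled WT and 3 labelled pfkfb3-ko (KO). The design text of the series places EC beside the Pfkfb3 deletion, and its title speaks of endothelial cells, but no label says in which cells the gene was deleted or whether the macrophages carry the deletion. Tamoxifen, 1 mg a day on 5 days followed by at least 7 days without it, is listed for both groups. Each sample held 7000 to 50000 sorted cells, and the labels give neither the age of the mice, nor a Cre driver, nor the number of mice behind a library. P-values therefore measure only the spread between these libraries, which may be technical.

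Total counts ranged from 18853712 to 29060584 per library, and counts in protein-coding genes from 9176529 to 12422641 in KO and from 16995741 to 22751787 in WT. The small RNA model Gm23935 took 13.7% to 16.8% of counts in WT and 31.6% to 46.3% in KO. Levels are CPM, counts relative to a common library size after scaling by TMM, a factor computed so that most genes show no change. Pfkfb3, the gene of a glycolysis-promoting enzyme, was at 70.9, 101 and 82.4 CPM in WT replicates 1, 2 and 3 and at 55.5, 59.3 and 160 CPM in the KO replicates in that order (adjusted p = 0.89), so the KO library with the highest Pfkfb3 level is replicate 3. KO replicates 1 and 2 stood apart from the rest by Xist (154 and 171 CPM against at most 0.465 CPM elsewhere) and by the Y-linked Ddx3y (0.533 and 0 CPM against 60.5 to 69.2 CPM elsewhere). They therefore differ in sex both from KO replicate 3 and from all 3 WT libraries. Sex thus partly goes with genotype, and the parts of the 2 in differences between KO and WT cannot be told apart. In fits without KO replicate 3, sex and genotype coincide fully. Macrophage markers were high throughout: Adgre1 (F4/80) averaged 489 ± 13.1 CPM over WT and 707 ± 85.9 CPM over KO libraries (SD, n = 3 each). Of the 8 macrophage markers Csf1r and Aif1 rose and Cd68 fell, and their sum was 5817 to 8146 CPM in WT against 8296 to 8711 CPM in KO. Of the marker lists for other cells, 4 of 7 tested muscle genes and 4 of 7 tested fibroblast genes rose and 4 of 8 endothelial genes fell. Their summed levels were 9.35 to 13.3 and 44.0 to 68.5 CPM (muscle, WT and KO), 11.6 to 40.6 and 135 to 186 CPM (fibroblast), and 67.5 to 114 and 24.1 to 50.7 CPM (endothelial). Of 5 tested neutrophil genes 1 rose and 1 fell, with summed levels of 66.9 to 94.7 CPM in WT and 92.3 to 311 CPM in KO. The gene that rose was Mmp9, at 14.6, 13.7 and 25.1 CPM in WT and at 268, 162 and 18.9 CPM in KO. The gene that fell was Mmp8, with means of 10.7 CPM in WT and 2.33 CPM in KO. Of the 5 estimates, 3 were negative and 2 positive. Ly6g was at 0 in all libraries and S100a9 at 0 in the KO libraries. Of 6 T cell markers, Cd2 alone was tested and was not called, and the list summed to 1.53 to 4.88 CPM in WT and 0.387 to 2.51 CPM in KO. The part of these differences in the proteasome values was not tested. In bulk RNA, fewer cells of a type and less RNA per cell cannot be told apart.

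The promoters of 4 members are shown because these genes stand for the patterns described below: Psma2 and Psmd8 were called lower, Psmc6 was the ATPase with the smallest p, and Psme1 was higher in KO replicates 1 and 2. No promoter sequence was at hand for Psmb2, which was also called lower, so it was neither shown nor searched. Sequences are from RefSeq on GRCm38.p6, from 250 bases before to 50 bases after the annotated start, read 5′ to 3′ on the gene's strand. Capitals mark matches to any of 5 motifs, searched on both strands: the antioxidant response element TGACNNNGC, bound by the proteasome regulator NFE2L1 and its relatives, the CCAAT box CCAAT, the ETS site CCGGAAG, the interferon-stimulated response element (GAAA and GAAA parted by any 2 bases) and the gamma-activated sequence TTCNNNGAA. No motif matches overlapped in these 4 windows.
Psma2 promoter, chr13:14612992-14613291, plus strand: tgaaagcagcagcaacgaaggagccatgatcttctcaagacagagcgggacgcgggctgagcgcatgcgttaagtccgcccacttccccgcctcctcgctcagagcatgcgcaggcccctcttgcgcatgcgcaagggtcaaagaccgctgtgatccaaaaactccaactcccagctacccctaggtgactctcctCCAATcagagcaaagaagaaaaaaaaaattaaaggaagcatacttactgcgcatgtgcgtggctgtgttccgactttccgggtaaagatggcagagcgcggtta
Psmd8 promoter, chr7:29180624-29180923, minus strand: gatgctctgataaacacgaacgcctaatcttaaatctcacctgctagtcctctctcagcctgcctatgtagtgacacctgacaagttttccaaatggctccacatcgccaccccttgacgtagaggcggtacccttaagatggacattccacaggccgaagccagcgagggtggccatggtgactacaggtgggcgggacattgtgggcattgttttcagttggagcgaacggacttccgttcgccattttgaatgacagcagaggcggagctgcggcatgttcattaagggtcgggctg
Psmc6 promoter, chr14:45329574-45329873, plus strand: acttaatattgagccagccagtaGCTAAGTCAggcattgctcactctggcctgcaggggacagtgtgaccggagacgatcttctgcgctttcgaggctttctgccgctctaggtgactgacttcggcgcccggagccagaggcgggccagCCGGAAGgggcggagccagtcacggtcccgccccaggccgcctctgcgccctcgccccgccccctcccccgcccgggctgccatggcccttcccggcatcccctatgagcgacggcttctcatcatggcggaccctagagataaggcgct
Psme1 promoter, chr14:55578244-55578543, plus strand: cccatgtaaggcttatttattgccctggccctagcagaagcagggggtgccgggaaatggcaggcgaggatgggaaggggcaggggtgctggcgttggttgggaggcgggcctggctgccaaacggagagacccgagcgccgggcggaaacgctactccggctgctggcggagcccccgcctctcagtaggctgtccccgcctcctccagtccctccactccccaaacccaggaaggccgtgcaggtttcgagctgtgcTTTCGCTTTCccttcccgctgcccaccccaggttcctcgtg

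Psma2 held a CCAAT box beginning 54 bases before the start. Psmc6 held an antioxidant response element, on the opposite strand, beginning 227 bases before the start and an ETS site beginning 100 bases before it. Psme1 held an interferon-stimulated response element, on the opposite strand, beginning 9 bases past the start. None of the 5 letter patterns was found in the window of Psmd8. Of the 47 members, 39 were in the promoter table, Psmc3ip among them, so 38 proteasome promoters were searched, at the first listed start of each gene. The ETS site was in 13 of these 38 (34.2%), against 9.12% of the 27025 genes in the table, and the interferon-stimulated element in 5 (13.2% against 3.49%). The antioxidant response element was in 6 (15.8% against 12.5%), the CCAAT box in 13 (34.2% against 37.9%) and the gamma-activated sequence in 2 (5.26% against 8.47%). A match describes the letters of a window and is not evidence of binding.

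In KO, Psma2, Psmb2 and Psmd8 fell and none of the 46 tested members rose. These were 3 of 46 tested members (6.52%), beside 2.25% of all 14987 tested genes called lower, 4.39% called higher and 6.64% called in either direction (edgeR quasi-likelihood test, adjusted p under 0.05). Estimates below 0 were more common than calls: 38 of 46 members, and 31 of the 32 tested structural subunits of core, base and lid, had a negative log2 fold change. The median log2 fold change was -0.20 over the members and -0.29 over the structural subunits, beside 0.01 over all tested genes. All 3 KO libraries lay below all 3 WT libraries for 19 of 46 members (41.3%), against 14.7% of all genes, and above them for Psmg3 alone, against 16.8%. All 3 calls were lost when any library other than KO replicate 3 was left out and when KO replicates 1 and 2 were summed or both left out, and the count of members called ran from 0 to 38 over 16 alternatives.

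**Figure D1:**
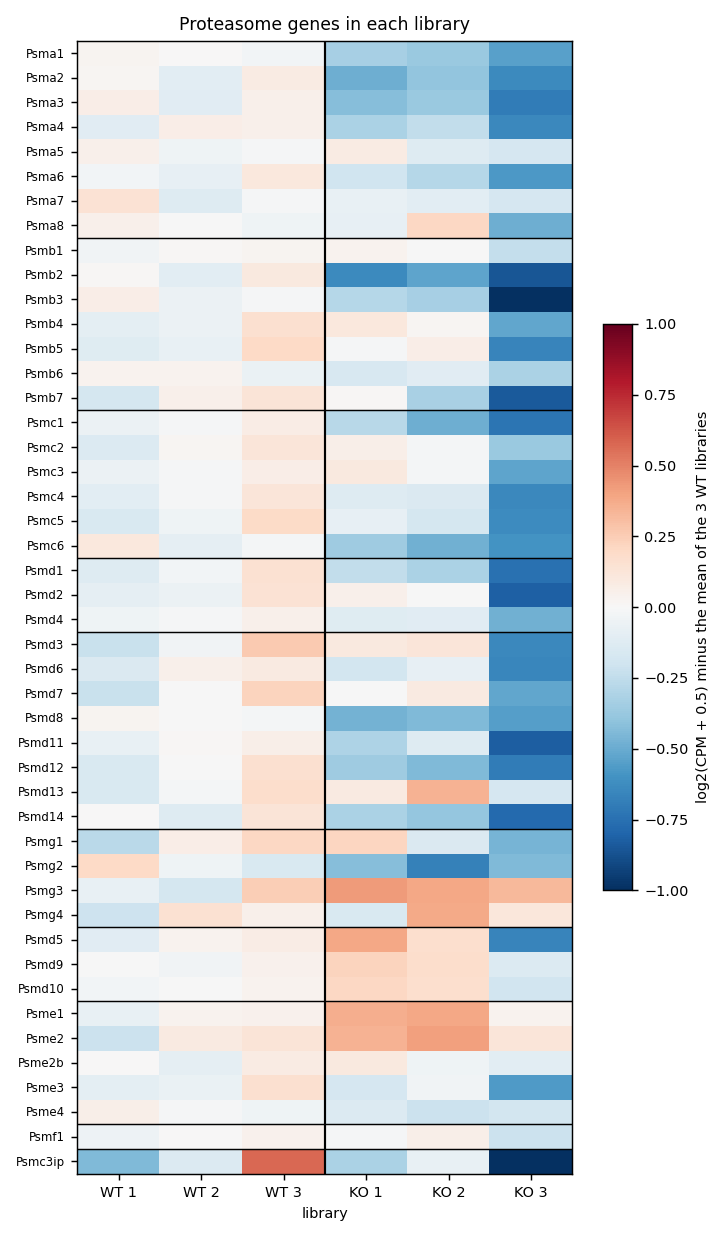
Each row is a tested gene and each column a library, coloured by log2(CPM + 0.5) minus the mean of the 3 WT libraries on a scale that saturates at -1 and 1, with lines between role groups in the order alpha ring, beta ring, ATPases, base scaffold, lid, core chaperones, base chaperones, activators, PI31 and Psmc3ip. The column of KO replicate 3 is blue for nearly all structural subunits, while KO replicates 1 and 2 are blue for some, among them Psma2, Psmb2 and Psmd8, and near white for others.

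The alpha ring gates the core. Its 8 genes all had negative estimates, from -0.51 (Psma2) to -0.07 (Psma5), with a median of -0.38, and 1 fell. Psma2 (ENSMUSG00000015671, chromosome 13, 14613240 to 14674236 on GRCm38) was at 54.1, 49.5 and 56.6 CPM in WT and at 37.8, 40.4 and 34.0 CPM in KO. Every KO library lay below every WT library. The log2 fold change was -0.51 (SE 0.13, adjusted p = 0.047), and the adjusted p without another library than KO replicate 3 was up to 0.14. The alpha genes Psma1, Psma3, Psma4 and Psma6 also lay lower in all 3 KO libraries than in any WT library but were not called, with log2 fold changes of -0.42, -0.50, -0.40 and -0.35 and adjusted p of 0.073, 0.061, 0.13 and 0.17. Psma5 and Psma7 overlapped between groups, at 31.4 ± 1.08 and 30.0 ± 2.92 CPM for Psma5 and at 84.4 ± 8.03 and 77.6 ± 2.71 CPM for Psma7 (WT and KO, SD, n = 3 each). Psma8, the testis form of Psma7, was near 1 CPM in both groups.

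The beta ring carries the peptidases. All 7 tested beta genes had negative estimates (median -0.19), and 1 fell. Psmb2 (ENSMUSG00000028837, chromosome 4, 126677630 to 126709714), a beta subunit without catalytic activity, had the lowest estimate of all members. It was at 36.5, 33.6 and 38.7 CPM in WT and at 23.1, 24.97 and 19.7 CPM in KO, with no overlap. The log2 fold change was -0.68 (SE 0.14, adjusted p = 0.027), or a level of 0.624 times WT, and the adjusted p reached 0.095 without KO replicate 1. Psmb3, another structural subunit, was lower in all KO libraries too (log2 fold change -0.51, adjusted p = 0.17), with its lowest level, 12.4 CPM, in KO replicate 3. Psmb1 and Psmb4 overlapped between groups, with log2 fold changes of -0.06 (95% interval -0.34 to 0.21) and -0.11 (-0.51 to 0.29).

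The 3 peptidases of the constitutive core were not called. Psmb5 (chromosome 14, 54614119 to 54618022), the chymotrypsin-like subunit, was at 23.3, 24.0 and 29.1 CPM in WT and at 25.2, 26.5 and 15.8 CPM in KO. KO replicates 1 and 2 lay inside the WT range and KO replicate 3 below it (log2 fold change -0.18, 95% interval -0.65 to 0.29, adjusted p = 0.66). Psmb6 (chromosome 11, 70525367 to 70527858), the caspase-like subunit, was at 108, 108 and 100 CPM in WT and at 94.4, 97.5 and 84.4 CPM in KO. The groups did not overlap, and the log2 fold change was -0.19 (95% interval -0.46 to 0.07, adjusted p = 0.36). Psmb7 (chromosome 2, 38588036 to 38644087), the trypsin-like subunit, was at 23.5, 27.6 and 29.1 CPM in WT and at 26.9, 21.1 and 14.6 CPM in KO. Here the groups overlapped through KO replicate 1 (log2 fold change -0.36, 95% interval -0.85 to 0.14, adjusted p = 0.36). Psmb7 shares 405 exonic bases with Nek6 on the opposite strand, and without a stated strand setting the reads of that stretch cannot be assigned.

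In inflammation, Psmb8, Psmb9 and Psmb10 can take the places of Psmb5, Psmb6 and Psmb7 and turn the core into the immunoproteasome. The ratio of constitutive to inducible subunit was taken within each library, where the scaling factor cancels but for the pseudocount. Of the inducible subunits Psmb9 rose (adjusted p = 0.043), and Psmb8 and Psmb10 were not called (adjusted p = 0.14 and 0.11). The call of Psmb9 was lost without any library other than KO replicate 3 (adjusted p of 0.090 to 0.17) and with unscaled library sizes (log2 fold change 0.20, adjusted p = 0.51). Without KO replicate 3, where the KO libraries differ in sex from WT, all 3 inducible subunits were called higher (adjusted p of 0.013 to 0.019). The log2 ratio of Psmb5 to Psmb8 was -1.34, -1.41 and -1.26 in WT and -1.93, -1.95 and -2.07 in KO. For Psmb6 to Psmb9 it was 3.26, 2.85 and 2.77 in WT and 1.77, 2.04 and 2.15 in KO, and for Psmb7 to Psmb10 it was -0.25, -0.13 and -0.24 in WT and -0.93, -1.34 and -1.17 in KO. In each pair, every KO library lay below every WT library, KO replicate 3 included. The mean differences were -0.65, -0.97 and -0.94 on the log2 scale (exact two-sided permutation p = 0.1 for each pair and 0.1 adjusted over the 3 pairs, the smallest p that 3 against 3 libraries allow). In KO replicates 1 and 2 Psmb8, Psmb9 and Psmb10 each lay above all WT libraries. In KO replicate 3 Psmb8 (68.0 CPM) and Psmb10 (33.5 CPM) lay inside the WT ranges of 59.7 to 70.6 and 28.0 to 34.4 CPM, while Psmb9 (18.6 CPM) lay above its WT range of 10.8 to 14.5 CPM. Psmb5, Psmb6 and Psmb7 all lay below the WT range in KO replicate 3, and Psmb6 did so in KO replicates 1 and 2 as well.

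**Figure D2:**
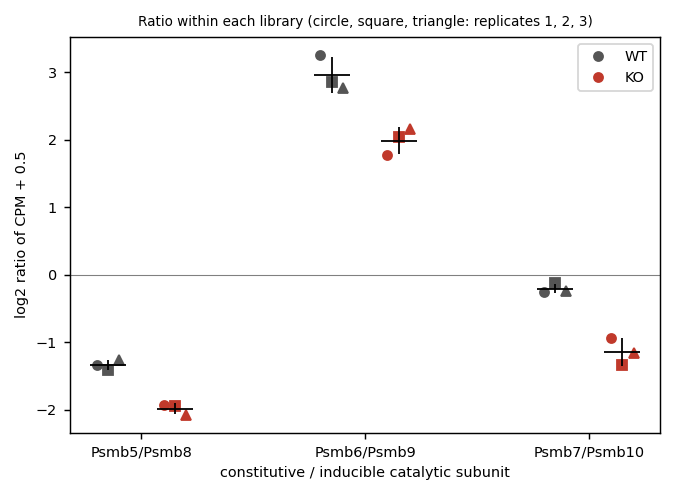
The vertical axis is the log2 ratio of CPM + 0.5 of a constitutive catalytic subunit to its inducible counterpart in each library. Grey symbols are WT, red symbols KO, bars the mean and SD of 3 libraries. In each of the 3 pairs all KO libraries lie below all WT libraries.

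In the regulatory particle, 1 of 17 tested subunits fell and 16 had negative estimates (median -0.29). None of the 6 ATPases passed the test in edgeR, although 2 reached an unadjusted p under 0.05 downward, beside 1551 of 14987 genes. Both DESeq2 and limma-voom called 2 of them, Psmc1 and Psmc6, lower. Psmc6 (ENSMUSG00000021832, chromosome 14, 45329788 to 45349705) was at 69.3, 60.5 and 63.7 CPM in WT and at 50.3, 46.1 and 42.3 CPM in KO. The groups did not overlap (log2 fold change -0.48, SE 0.13, adjusted p = 0.056), and 6 of 16 alternatives called it lower. Psmc1 averaged 97.0 ± 4.65 CPM over WT and 68.9 ± 10.8 CPM over KO libraries (SD, n = 3 each, adjusted p = 0.073). Psmc2 and Psmc3 lay inside the WT range or above it in KO replicates 1 and 2 and below it in KO replicate 3, with log2 fold changes of -0.10 and -0.13.

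Of the base scaffold, Psmd1 had the smallest p. It was at 104, 112 and 127 CPM in WT and at 96.0, 91.4 and 67.9 CPM in KO, so the groups did not overlap (log2 fold change -0.43, SE 0.16, adjusted p = 0.15). Psmd2, its partner scaffold, was at 191, 195 and 226 CPM in WT and at 211, 204 and 116 CPM in KO: 2 KO libraries lay inside the WT range and replicate 3 far below it (adjusted p = 0.61). Psmd4, a ubiquitin receptor, was lower in all KO libraries, at 115 ± 3.90 and 98.1 ± 13.6 CPM in WT and KO (SD, n = 3 each, adjusted p = 0.34).

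Of the 8 lid genes 1 fell and 7 had negative estimates (median -0.35). Psmd8 (ENSMUSG00000030591, chromosome 7, 29174188 to 29180701), a lid subunit whose joining completes the lid in yeast, was at 157, 153 and 151 CPM in WT and at 110, 113 and 105 CPM in KO. Both groups were tight and did not overlap. The log2 fold change was -0.49 (SE 0.11, adjusted p = 0.034), and the adjusted p reached 0.15 without KO replicate 2. Psmd12, a scaffold subunit, and Psmd14, the enzyme that removes ubiquitin, were lower in all KO libraries without a call, at log2 fold changes of -0.50 and -0.49 and adjusted p of 0.073 and 0.095. Psmd13 had the only positive estimate in the lid, with means of 65.4 ± 7.59 and 70.1 ± 12.5 CPM (WT and KO, SD, n = 3 each, adjusted p = 0.76). The estimate turned to -0.53 with unscaled library sizes, where the median of all genes was -0.60. Psmd13 overlaps Sirt3 on the opposite strand over 342 exonic bases.

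**Figure D3:**
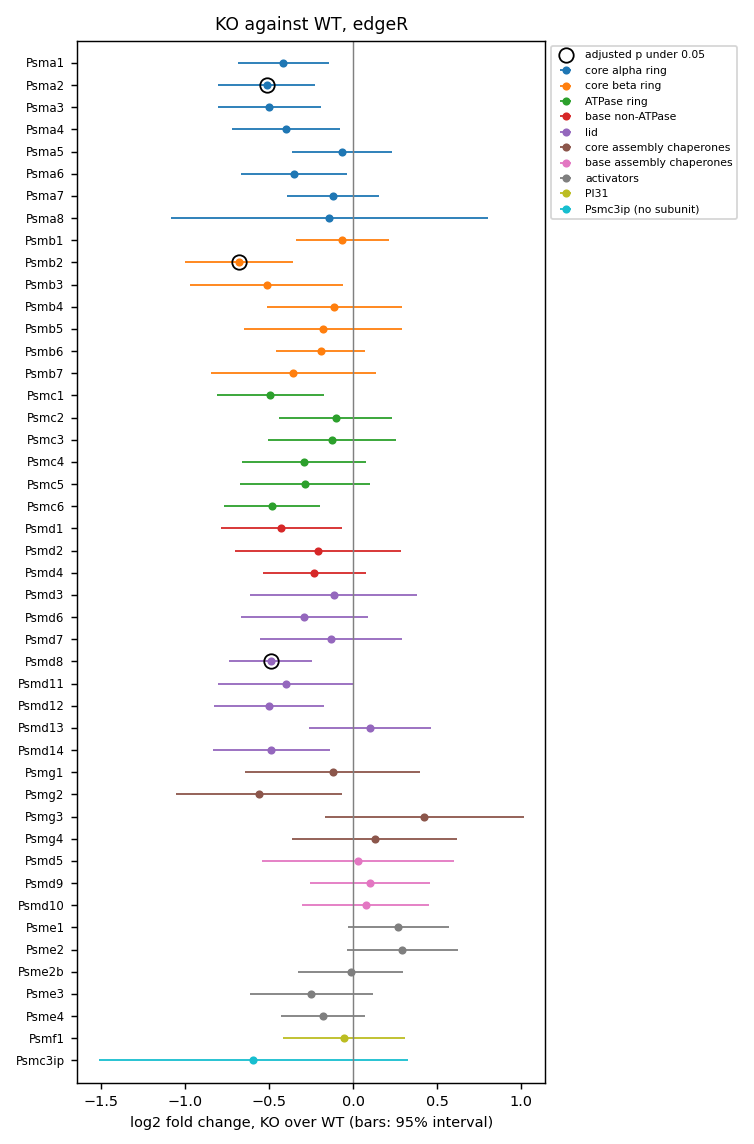
Points are the log2 fold change of KO over WT of each tested gene in edgeR, coloured by role, and bars are 95% intervals. Circles mark Psma2, Psmb2 and Psmd8, the 3 genes with an adjusted p under 0.05, and the points of core, base and lid lie to the left of 0 except that of Psmd13.

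The assembly chaperones had estimates on both sides of 0, and none passed the test in edgeR, where Psmg2 alone had an unadjusted p under 0.05. The 3 base chaperones Psmd5, Psmd9 and Psmd10 had estimates of 0.03 to 0.10. These turned negative with unscaled library sizes (median -0.54), where the median of all genes was -0.60. The smallest p was that of Psmd9, at 15.05, 14.7 and 15.5 CPM in WT and at 17.7, 17.1 and 13.7 CPM in KO. KO replicates 1 and 2 lay above the WT range and KO replicate 3 below it (log2 fold change 0.10, SE 0.16, adjusted p = 0.75), and the same held for Psmd5 and Psmd10. Of the exonic bases of Psmd9, 25.5% overlap the transcript Gm26745 on the opposite strand. Of the core chaperones, Psmg2 was at 7.48, 6.25 and 5.78 CPM in WT and at 4.69, 3.85 and 4.64 CPM in KO. Its groups did not overlap (log2 fold change -0.56, SE 0.22, adjusted p = 0.16). Psmg3 lay on the other side, with means of 2.91 ± 0.541 and 3.90 ± 0.157 CPM (WT and KO, SD, n = 3 each, log2 fold change 0.42, adjusted p = 0.37, or -0.19 with unscaled library sizes), and Psmg1 and Psmg4 overlapped between groups.

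Psme1 and Psme2 form the PA28 activator of the cytosol, which interferon-gamma induces. Psme1 (ENSMUSG00000022216, chromosome 14, 55578123 to 55581529) was at 110, 119 and 120 CPM in WT and at 149, 152 and 119 CPM in KO. KO replicates 1 and 2 lay above the WT range and KO replicate 3 inside it (log2 fold change 0.27, SE 0.13, adjusted p = 0.27). When KO replicate 3 was left out, so that the KO libraries differed in sex from WT, Psme1 was called higher, at a log2 fold change of 0.38 (adjusted p = 0.0495). With unscaled library sizes the estimate was -0.35, where the median of all genes was -0.60. Psme2 showed the same order, at 32.2, 39.8 and 40.9 CPM in WT and at 47.7, 49.8 and 40.7 CPM in KO. Psme2b, a near-identical copy of Psme2 (99.4% over 794 bases), was at 21.0 ± 1.28 and 20.7 ± 1.53 CPM in WT and KO (SD, n = 3 each), and reads could be split between the pair. Psme3, the nuclear PA28 gene, and Psme4, which encodes PA200, had estimates of -0.25 and -0.18 (adjusted p = 0.40 and 0.36). Psmf1, which encodes the core-binding protein PI31, was at 11.3, 11.7 and 12.1 CPM in WT and at 11.6, 12.2 and 9.99 CPM in KO, with overlap (log2 fold change -0.05, adjusted p = 0.88).

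**Figure D4:**
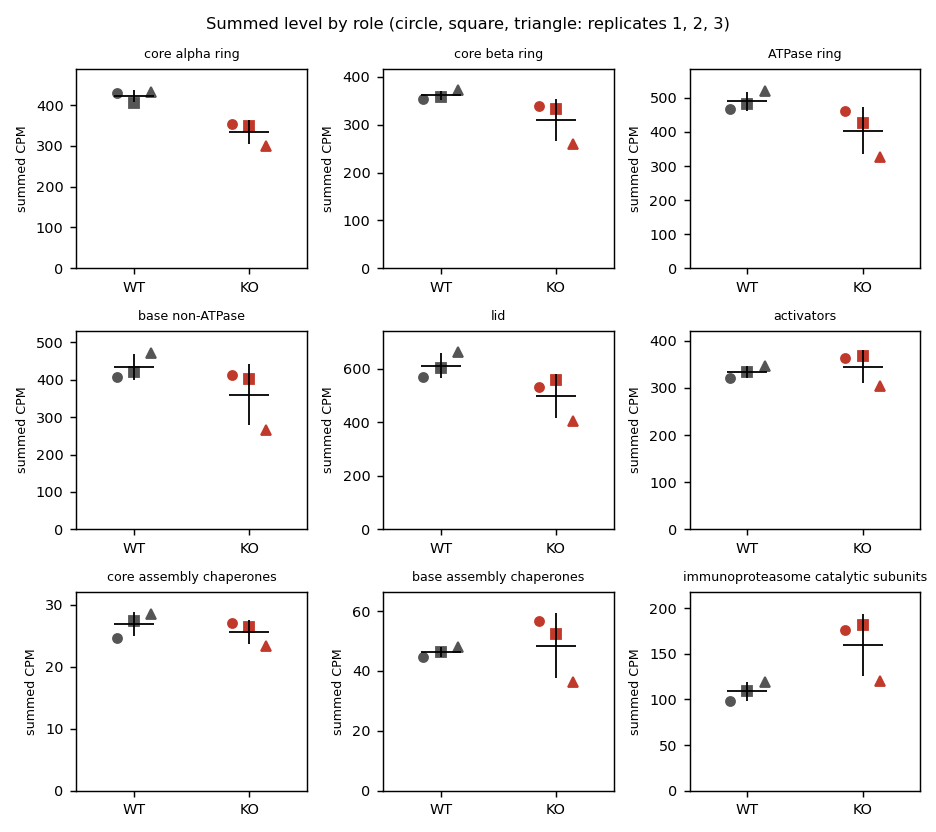
Each panel gives the summed CPM of a role group per library, with the mean and SD of 3 libraries per group, from 0 upward. The rings, the base scaffold and the lid are lowest in KO replicate 3, the alpha ring, beta ring, ATPase ring and lid lie lower in all 3 KO libraries than in any WT library (for the alpha ring 300 to 353 CPM against 405 to 432 CPM), and the base scaffold, activators, core chaperones and base chaperones overlap between groups. The inducible catalytic subunits lie higher in all 3 KO libraries than in any WT library, at 176, 181 and 120 CPM against 98.6, 109 and 119 CPM.

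KO replicate 3 was unlike KO replicates 1 and 2 over the same genes. Over all tested genes, log2 levels of KO replicates 1 and 2 correlated at 0.9899, and those of KO replicate 3 correlated with them at 0.965 and 0.969. Pairs of WT libraries correlated at 0.976 to 0.9896. KO replicate 3 lay below all 3 WT libraries for 42 of 46 members (91.3%) and for all 32 tested structural subunits, against 35.0% of all genes. KO replicates 1 and 2 both lay below all WT libraries for 19 members (41.3%), 17 of them structural, against 25.1% of all genes, and both above for 6 members, Psmd5, Psmd9, Psmd10, Psme1, Psme2 and Psmg3, against 25.5%. For 23 members KO replicate 3 lay below all WT libraries while KO replicates 1 and 2 did not both do so, against 20.3% of all genes, and it lay above them for Psmg3 alone, against 39.2%. The median of the members relative to the WT mean was -0.10 and -0.11 on the log2 scale in KO replicates 1 and 2 and -0.55 in KO replicate 3. The summed level of the structural subunits was 2227, 2266 and 2458 CPM in WT and 2093, 2067 and 1556 CPM in KO. Without KO replicate 3, 26 of 46 estimates were negative, beside 7901 of 15505 genes tested in that fit, and the median was -0.11, beside -0.01. Psma2, Psmb2 and Psmd8 were called lower and Psme1 higher, beside 689 genes lower and 963 higher in the whole table. KO replicates 1 and 2 differ in sex from all WT libraries, so genotype and sex cannot be told apart there. With KO replicates 1 and 2 left out, KO replicate 3 alone stood against WT. Then 43 of 46 estimates were negative, beside 8913 of 17661 genes, and the median was -0.62, beside -0.01. In that fit the lone library was assumed to vary like the WT libraries. KO replicate 3 also differs from KO replicates 1 and 2 in sex and in Pfkfb3 level, and the part of either in these values was not tested.

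**Figure D5:**
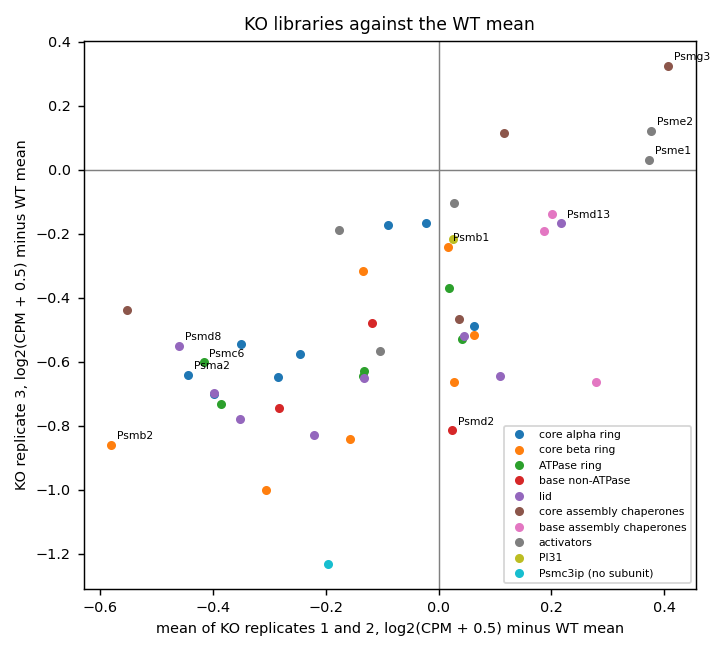
The horizontal axis is the mean of KO replicates 1 and 2 and the vertical axis KO replicate 3, each as log2(CPM + 0.5) minus the WT mean, with a point for each tested gene coloured by role. Most points lie below 0 on the vertical axis and spread to both sides of 0 on the horizontal axis, with Psmb2, Psma2, Psmd8 and Psmc6 low on both and Psme1, Psme2 and Psmg3 above 0 on both.

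Among other genes of the pathway, the list of further proteasome parts, assembly and associated factors held 12 tested genes, of which 1 fell and none rose (median -0.31). The gene that fell was Uchl5, a ubiquitin-removing enzyme of the base. Uchl5 was at 38.8, 38.5 and 42.6 CPM in WT and at 24.1, 28.5 and 17.0 CPM in KO, with no overlap (log2 fold change -0.78, SE 0.19, adjusted p = 0.043). Its call was lost without any of the libraries except KO replicate 3 (adjusted p of up to 0.12). Adrm1, the ubiquitin receptor that anchors Uchl5, was at 39.2, 42.8 and 50.4 CPM in WT and at 39.6, 40.7 and 24.9 CPM in KO (adjusted p = 0.36), and Pomp, the maturation factor of the core, at 70.8, 72.3 and 71.8 CPM and at 67.5, 58.5 and 49.8 CPM (adjusted p = 0.25). Both were lowest in KO replicate 3.

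None of 13 genes of transcriptional control passed the test (median -0.15), where edgeR gave 2 with an unadjusted p under 0.05. Of all 14987 tested genes, 1551 did so downward and 1965 upward. Nfe2l1, the factor that raises proteasome genes when degradation is impaired, was at 123, 120 and 147 CPM in WT and at 163, 175 and 123 CPM in KO. The levels were above the WT range in KO replicates 1 and 2 and inside it in KO replicate 3 (log2 fold change 0.24, SE 0.16, adjusted p = 0.42, or 0.0059 with limma-voom and sample weights). The estimate turned to -0.38 with unscaled library sizes, where the median of all genes was -0.60, and to -0.14 with KO replicate 3 alone. None of 11 genes of ubiquitin supply and shuttling passed the test either, with 2 at an unadjusted p under 0.05 and a median of -0.09.

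Other large constitutive complexes were set beside the proteasome. The cytosolic chaperonin CCT had 0 of 8 genes called (0 at an unadjusted p under 0.05) and a median log2 fold change of -0.24, which was -0.05 without KO replicate 3 and -0.68 with KO replicate 3 alone. The mitochondrial ribosome had 4 of 77 tested genes lower (5.19%, beside 2.25% of all genes) and none higher. Its median was -0.15, which was -0.03 and -0.41 in the same fits. The core particle had medians of -0.35, -0.15 and -0.70 and the regulatory particle of -0.29, -0.13 and -0.71. KO replicate 3 thus lay low in these complexes too, and whether the size differs between them was not tested. All 3 KO libraries lay below all 3 WT libraries for 0% of CCT genes and 26% of mitochondrial ribosome genes. The share was 53.1% of the structural proteasome subunits, against 14.7% of all genes. Psmc3ip, the meiotic factor outside the proteasome, was at 3.49, 4.41 and 7.57 CPM in WT and at 3.84, 4.64 and 1.81 CPM in KO, with overlap (log2 fold change -0.59, adjusted p = 0.42). Of its exonic bases, 21.2% overlap Mlx on the opposite strand.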

How the data were processed

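RNA from sorted mouse muscle macrophages was sequenced in 6 libraries. The authors deposited raw counts per gene, 1 column per library; the submitters' processing notes list featureCounts, HISAT2, Trim Galore, FastQC and DESeq with build GRCm38. No source used here gives the annotation or the strand setting, so reads of overlapping genes on opposite strands cannot be told apart. In 26 rows the symbol had become a calendar date; these rows (0.0913% to 0.163% of counts) were left out. Replicates were numbered in record order and grouped by the genotype label.

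Genes were filtered with filterByExpr, scaled with TMM and tested with the quasi-likelihood test of edgeR 4.0.16 in R 4.3.3 over all 6 libraries (two-sided, Benjamini-Hochberg over 14987 genes), which was checked on simulated counts. In that simulation of KO against WT over 14987 genes, 6 of 100 genes changed 1.5-fold and 52 of 100 changed 2-fold were called. Ratios used a pseudocount of 0.5 CPM and exact permutation. CPM is not corrected for length, so levels of different genes were not compared. Intervals are 95% intervals of the fitted log2 fold change. The lowest count of a tested member in a library was 10, and 42 members had at least 100 counts in every library. Positions come from GENCODE M21, matched on the symbol, and near-identical transcripts from BLAST 2.17.0 (at least 95% identity over at least 200 bases). Values in each library are given for called members, Psmb5, Psmb6, Psmb7, the smallest p of each role group, Pfkfb3, Uchl5, Nfe2l1, Pomp and Adrm1; other members shown by library were chosen after their values were seen. The members and lists were chosen with earlier results of these data known. Alternatives were DESeq2 1.42.0, limma-voom (limma 3.58.1) with sample weights, other scalings and filters, a replicate block, left-out libraries, and KO replicates 1 and 2 summed or left out.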

Additional observations from a re-analysis of the deposited data

How the results depend on the processing

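The count of members called, 3 of 46 in the fit reported (beside 995 of 14987 genes), was 3 with DESeq2 size factors (beside 987 of 14987). It was 4 with a stricter count filter (beside 1022 of 12837). It was 38 of 46 with unscaled library sizes, beside 6308 of 14987 genes (300 higher, 6008 lower). There all genes had a median of -0.60 and the members of -0.82 on the log2 scale. With protein-coding genes alone 7 of 46 were called, all lower, beside 1201 of 11865 genes (477 lower). With no count filter it was 8 of 47, all lower, beside 1957 of 32474 (923 lower). DESeq2 called 8 of 46, all lower, beside 1870 of 14987 genes (778 lower). With limma-voom it was 15 of 46 (12 lower, 3 higher), beside 4850 of 14987 (2249 lower, 2601 higher). It was 0 to 4 with a library left out, 4 without KO replicate 3 and 0 in the other 5 of these 6 fits. In those 5 fits 9 to 15 of 46 members had an unadjusted p under 0.05, all downward. Of 15509 to 15815 genes tested there, 1156 to 1381 did so downward and 1472 to 1902 upward. With KO replicates 1 and 2 summed 0 were called. Then 13 of 46 had an unadjusted p under 0.05, all downward, beside 1268 of 16717 genes downward and 1586 upward. The count of all genes called, 995, was 6308 with unscaled library sizes (300 higher, 6008 lower), 1957 with no count filter, 1870 with DESeq2, 4850 with limma-voom, 189 to 1652 with a library left out, 282 with KO replicates 1 and 2 summed and 149 with both left out. Pfkfb3 had a log2 fold change of -0.65 with limma-voom (adjusted p = 0.015). The 3 catalytic ratios kept their direction with a pseudocount of 0.1 CPM. Every KO ratio lay below every WT ratio, so leaving out a library could not change the direction.

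The titles share their endings between groups, and a replicate block on that ending left 0 members and 267 genes called. In that fit 11 of 46 members had an unadjusted p under 0.05, all downward, beside 1247 of 14987 genes downward and 1641 upward. Deviations of libraries with the same ending correlated at 0.02, -0.06 and -0.09, so the endings were not taken as pairs. Psmb11, with at most 5 counts in a library, was too shallow to compare.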

Other observations

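Several members have near-identical copies in the genome, and the counts listed for those copies were sizeable in places. Gm6542, a processed pseudogene alike to Psma4 over 783 bases (96.8% identity), held 2676 counts over the 6 libraries beside 10181 for Psma4. Gm13835, identical to Psma3 over 665 bases, held 1455 counts beside 8460 for Psma3. Gm4950, a copy of Psmb3 (97.1% over 615 bases), held 567 counts beside 3300, and Gm5422, a copy of Psmd2 (96.4% over 2726 bases), held 1124 counts beside 28352. Such a near-identical stretch in another annotated transcript was found for 15 of the 47 members. Psma2, Psmb2 and Psmd8, the members called lower, and Psmb6 were among those without one.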
